A study of Mus musculus with 6 samples.

Results

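The 9 genes described here, followed in mouse testis, encode carriers of sugars and lactate and their partner proteins. They were taken from the deposited count table by symbol, 9 of 54100 genes. They are 4 transporters of the SLC2 sugar family (Slc2a1, Slc2a3 and Slc2a8, which carry glucose, and Slc2a5, which carries fructose), 3 monocarboxylate transporters (Slc16a1, Slc16a3 and Slc16a7) and the ancillary membrane proteins Bsg and Emb, which bring monocarboxylate transporters to the cell surface. The libraries were bulk RNA-seq of testis cryosections, 3 of them H3t deletion, lacking a histone H3 variant of the testis, and 3 wild-type (WT). The labels give neither age nor strain, nor how far the deletion reaches, and the series concerns Leydig cells in testes whose spermatogenesis is disrupted. Apart from a number in each title, nothing states that each library is from its own mouse. Every p-value therefore rests on the spread among these 6 libraries, part of which may be technical.

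Sertoli cells, which line the seminiferous tubules and nurse the germ cells, take up glucose, turn much of it into lactate and export the lactate. Meiotic and postmeiotic germ cells behind the blood-testis barrier import that lactate as fuel, while spermatids and sperm also carry glucose transporters of their own. Members of the SLC2 family move sugars down their gradient. The SLC16 monocarboxylate transporters move lactate or pyruvate together with a proton, and most of them need a partner of the basigin family, Bsg or Emb, to leave the endoplasmic reticulum.

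The targeted gene H3f4, the current symbol of H3t, had 0 counts in each H3t deletion library, against 390, 571 and 356 counts in WT replicates 1, 2 and 3. Set against a floor of 3 counts over the deletion libraries, the loss was at least 638-fold. Total counts ran from 8315960 to 8988520 in the deletion and from 8037826 to 10702930 in WT. All 10 listed spermatid markers fell, with summed levels of 10.7 to 68.3 CPM in deletion libraries and 20856 to 22621 CPM in WT libraries (counts per 1000000, scaled by the trimmed mean of M-values, TMM). All 10 spermatocyte markers fell, with sums of 370.2 to 428 CPM in the deletion, against 4905 to 5216 CPM in WT. All 14 Sertoli markers rose, with sums of 4692 to 4758 CPM in the deletion, against 1045 to 1142 CPM in WT, although with libraries scaled so that the Sertoli markers are equal (Sertoli marker level) 2 rose and 3 fell. With TMM scaling all 8 Leydig markers rose (sums of 3626 to 3866 CPM in the deletion, against 387 to 449 CPM in WT), and so did all 10 macrophage markers (489 to 575 CPM in the deletion, against 102 to 116 CPM in WT). Of 10 spermatogonial markers 8 rose and 1 fell (499 to 554 CPM in the deletion, against 183 to 215 CPM in WT). Of 8 endothelial markers 7 rose (120.0 to 133 CPM in the deletion, against 54.6 to 59.9 CPM in WT), and of 6 peritubular myoid markers 5 rose (653 to 706 CPM in the deletion, against 264 to 291 CPM in WT). At Sertoli marker level 7 Leydig and 4 macrophage markers were still called higher, whereas 5 endothelial and all 6 myoid markers were called lower. At that level 1 macrophage marker was called lower, and the spermatogonial markers divided into 2 higher and 5 lower. The 6 erythroid markers had sums of 16.5 to 25.2 CPM in the deletion, against 13.5 to 16.7 CPM in WT. Only 1 of them was tested, and it was not called with TMM. It was called higher with upper-quartile scaling and with no scaling factor, and lower at Sertoli marker level. Another erythroid marker was at 0 in all deletion libraries, while no marker of the other lists was at 0 throughout a group. Mitochondrial genes took 21.6% to 22.7% of counts in the deletion and 5.59% to 6.44% in WT. In bulk tissue fewer cells of a type and less RNA per cell cannot be told apart, and the part of these cell types, and of the mitochondrial share, in each transporter's change was not tested.

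With TMM scaling all 9 transporter genes differed between the groups, 4 higher and 5 lower in the H3t deletion (quasi-likelihood test of edgeR, Benjamini-Hochberg adjusted over 17038 tested genes, called at a false discovery rate of 0.05). So much of the transcriptome differed that this count says little by itself: 84.5% of all tested genes were called, 38.4% as higher and 46.1% as lower. Higher calls made up 45.4% of all calls with TMM, 55.1% with upper-quartile scaling, 56.6% with no scaling factor and 4.78% at Sertoli marker level. The groups did not overlap for any of the 9 genes, as for 85.9% of all tested genes. The median log2 change, deletion minus WT, was -0.65 over the 9 genes and -0.19 over all tested genes. What set the transporters apart from each other was the size and sign of the change. With TMM scaling the log2 changes of Slc2a5, Slc16a7 and Slc2a3 were -9.1, -7.04 and -5.23, those of Bsg and Slc2a8 were -1.25 and -0.65, and those of Emb, Slc2a1, Slc16a3 and Slc16a1 were 3.5, 2.07, 1.83 and 1.78. A loss at least as large as that of Slc2a3 was called for 16.8% of all tested genes, and a gain at least as large as that of Emb for 1.67%.

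**Figure D1:**
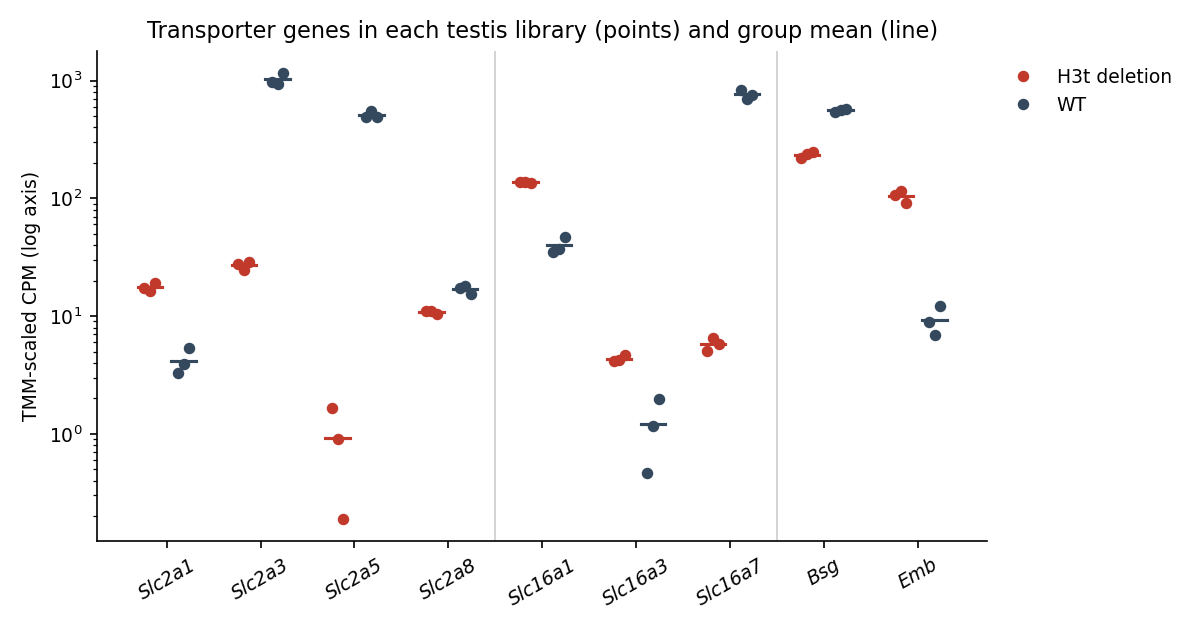
TMM-scaled CPM (log axis) of the 9 transporter genes in each library, with H3t deletion libraries (red, 3 points) left of WT libraries (dark, 3 points) and a line at the group mean. For Slc2a3 the deletion points lie at 24.9 to 29.1 CPM and the WT points at 936 to 1159 CPM, and for Slc16a7 the deletion points lie at 5.07 to 6.51 CPM and the WT points at 702 to 836 CPM.

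The upstream sequences of 4 genes are shown. They are the genes with the largest loss (Slc2a5), the smallest change (Slc2a8) and the smallest gains with TMM scaling (Slc16a1 and Slc16a3). The windows of Slc2a1 and Emb, which had larger gains, are not printed. The printed sequences come from RefSeq. These 4 are windows on GRCm38.p6 that run up to 250 bases before the gene's start and stop at the first base that GENCODE M21 places in an exon of the gene. They are given 5′ to 3′ in the direction of transcription, from chr4:150119094-150119282 on the plus strand, chr2:32982084-32982333 on the minus strand, chr3:104638414-104638663 on the plus strand and chr11:120948817-120949052 on the plus strand. The Slc16a3 window lies inside the annotated span of the gene. Capitals mark matches, on either strand, to GGGCGG (GC box, bound by Sp1 family factors), ACGTG (the core that hypoxia-inducible and E-box factors share) and TGACG (the core of the cyclic AMP response element).
Slc2a5: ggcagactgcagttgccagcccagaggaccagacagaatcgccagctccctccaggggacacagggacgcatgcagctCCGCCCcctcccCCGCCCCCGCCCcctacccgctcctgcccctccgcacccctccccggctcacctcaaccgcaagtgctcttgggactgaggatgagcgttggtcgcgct
Slc2a8: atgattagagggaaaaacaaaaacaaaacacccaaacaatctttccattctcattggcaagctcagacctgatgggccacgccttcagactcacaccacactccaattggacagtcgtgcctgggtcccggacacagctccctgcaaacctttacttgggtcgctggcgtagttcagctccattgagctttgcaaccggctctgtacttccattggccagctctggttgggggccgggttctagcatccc
Slc16a1: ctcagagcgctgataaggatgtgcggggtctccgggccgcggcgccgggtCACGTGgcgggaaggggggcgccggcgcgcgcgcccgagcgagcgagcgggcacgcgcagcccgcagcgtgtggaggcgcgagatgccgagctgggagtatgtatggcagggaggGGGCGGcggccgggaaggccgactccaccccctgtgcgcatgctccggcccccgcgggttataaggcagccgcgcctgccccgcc
Slc16a3: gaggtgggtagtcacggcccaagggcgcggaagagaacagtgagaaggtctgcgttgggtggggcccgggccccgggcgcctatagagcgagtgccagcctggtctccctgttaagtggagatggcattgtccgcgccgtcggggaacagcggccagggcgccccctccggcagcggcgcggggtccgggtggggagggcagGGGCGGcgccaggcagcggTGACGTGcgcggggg

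RefSeq windows were at hand for 6 of the 9 genes. Over the full 250 bases Slc2a5 held 3 GC boxes and none of the other motifs, and Slc2a8 held no match to any of them. Slc16a1 held 1 GC box and the palindrome CACGTG, which counts as a match on both strands. Slc16a3 held 1 GC box, 2 ACGTG and 1 TGACG, with 1 of its ACGTG matches overlapping the TGACG and the other beyond the printed stretch. Slc2a1 held 2 GC boxes and 1 ACGTG, and Emb held 1 GC box. Of the Slc2a1 window 34 bases are in annotated exons, and only 1 GC box and no ACGTG lie wholly before them. The Emb window lies inside the annotated span of the gene, and all 250 of its bases are in annotated exons of Emb. Of all 32851 windows of this length 32.7% held GGGCGG, 16.6% ACGTG and 17.8% TGACG. The window of Slc16a1 was rich in CpG dinucleotides, with 37 of them and an observed-to-expected ratio of 1.03, against a median of 6 and 0.373 over all windows. Slc16a3 had 29 CpG and a ratio of 0.909, while Slc2a5, Slc2a1, Slc2a8 and Emb had 15, 13, 7 and 6 CpG. A match is a description of these letters only, and testis transcripts can start elsewhere.

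Summed over the 4 genes, the SLC2 transporters were far lower in the deletion, although Slc2a1 by itself was higher with TMM scaling. Per kilobase of exon, the scale on which genes of different length can be compared, the 4 genes together stood at 12.4 ± 0.536 CPM per kb in the deletion and 299 ± 13.2 CPM per kb in WT (SD, n = 3 each). Slc2a3 (GRCm38 chromosome 6, 122727809 to 122801640, minus strand) encodes GLUT3, a high-affinity glucose transporter of neurons, early embryos and male germ cells. It had 27.6, 24.9 and 29.1 CPM in deletion replicates 1, 2 and 3 and 970.4, 936 and 1159 CPM in WT replicates 1, 2 and 3. The lowest WT library was thus far above the highest deletion library, and Slc2a3 was 37.6-fold lower in the deletion with TMM scaling (log2 change -5.23, SE 0.12, adjusted p = 4.54e-15, edgeR). Over the other scalings its log2 change lay between -8.42 at Leydig marker level and -4.59 with no factor, and it was called lower under each. In WT it was the gene with rank 122 by CPM among all tested genes, and in the deletion its rank was 5230.

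Slc2a5 (chromosome 4, 150119283 to 150144169, plus strand) encodes GLUT5, which carries fructose and is known from intestine and sperm. It fell to 1.66, 0.904 and 0.191 CPM in deletion replicates 1, 2 and 3 (18, 10 and 2 counts), against 494, 551 and 495 CPM in WT replicates 1, 2 and 3. Relative to their mean, the deletion libraries differed among themselves by more than those of any other of the 9 genes, and all of them lay far below WT. The fitted log2 change was -9.1 (SE 0.22, adjusted p = 6.02e-15, edgeR), which is 547-fold lower with TMM scaling, and it was -9.8 without deletion replicate 1. It was called lower under each of the other scalings, between -12.28 at Leydig marker level and -8.46 with no factor. The summed spermatid markers had their range of 10.7 to 68.3 CPM over these same deletion libraries, and their part in the spread of Slc2a5 was not tested.

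Slc2a1 (chromosome 4, 119108711 to 119137983, plus strand) encodes GLUT1, the widely used glucose transporter of Sertoli cells, endothelium and other somatic cells. It had 17.4, 16.5 and 19.1 CPM in deletion replicates and 3.27, 3.95 and 5.36 CPM in WT replicates. Every deletion library was above every WT library, by 4.19-fold with TMM scaling (log2 change 2.07, SE 0.23, adjusted p = 6.34e-07, edgeR), but at Sertoli marker level the change was -0.10 and not called (adjusted p = 0.733), and with libraries scaled to equal Leydig markers (Leydig marker level) it was -1.12 and called lower (adjusted p = 0.000671). WT levels rested on 21, 34 and 38 counts.

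Slc2a8 (chromosome 2, 32972990 to 32982083, minus strand) encodes GLUT8, an intracellular sugar transporter described as abundant in testis and placed at the sperm acrosome. In these libraries its rank by CPM among all tested genes was only 7867 in WT and 8320 in the deletion. It had 10.96, 10.9 and 10.5 CPM in deletion replicates and 17.4, 17.9 and 15.5 CPM in WT replicates. This was the smallest change among the 9 genes, 1.57-fold lower with TMM scaling (log2 change -0.65, SE 0.18, adjusted p = 0.00332, edgeR). The call was lost with upper-quartile scaling, at -0.11 (adjusted p = 0.577), and with no scaling factor, at -0.01 (adjusted p = 0.953). The gene was called lower at -2.83 at Sertoli marker level (adjusted p = 5.61e-11), -3.84 at Leydig marker level (adjusted p = 9.63e-14) and -2.26 with libraries scaled to equal spermatogonial markers (adjusted p = 6.31e-14).

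The monocarboxylate transporters moved apart. Slc16a7 (chromosome 10, 125219270 to 125389465, minus strand) encodes MCT2, the high-affinity lactate and pyruvate importer that sits in the sperm tail. It had 5.07, 6.51 and 5.82 CPM in deletion replicates 1, 2 and 3 and 836, 702 and 759 CPM in WT replicates 1, 2 and 3. No deletion library came near a WT library, and Slc16a7 was 132-fold lower in the deletion with TMM scaling (log2 change -7.04, SE 0.13, adjusted p = 1.17e-15, edgeR). Other scalings put it between -10.23 at Leydig marker level and -6.4 with no factor, called lower under each. The antisense gene Gm45604 lies within its span without sharing exon bases, and Gm47862 shares 179 exon bases with it on the other strand. Both had 0 counts in the deletion, and in WT they had 162 and 31 counts in all, against 5373, 6037 and 5387 counts of Slc16a7 in WT replicates 1, 2 and 3.

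Slc16a1 (chromosome 3, 104638668 to 104658462, plus strand) encodes MCT1, the most widely expressed lactate transporter. It had 139, 137 and 135 CPM in deletion replicates and 35.3, 37.4 and 46.8 CPM in WT replicates. The deletion libraries lay close together and all above WT, 3.43-fold with TMM scaling (log2 change 1.78, SE 0.11, adjusted p = 5.12e-10, edgeR), whereas the gene was called lower at Sertoli marker level, at -0.40 (adjusted p = 0.0145), and at Leydig marker level, at -1.41 (adjusted p = 5.57e-09). Its rank by CPM among all tested genes was 969 in the deletion and 5113 in WT.

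Slc16a3 (chromosome 11, 120948480 to 120960868, plus strand) encodes MCT4, the lactate exporter of strongly glycolytic cells, Sertoli cells among them. It was low throughout, with 45, 47 and 49 counts or 4.14, 4.25 and 4.67 CPM in deletion replicates and 3, 10 and 14 counts or 0.467, 1.16 and 1.97 CPM in WT replicates. The groups did not overlap, though WT replicate 1 stood at the floor of 3 counts. The log2 change was 1.83 with TMM scaling (SE 0.46, adjusted p = 0.00171, edgeR), the least precise of the 9, -0.32 at Sertoli marker level, not called (adjusted p = 0.56), and -1.35 at Leydig marker level, called lower (adjusted p = 0.0175).

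Bsg (chromosome 10, 79704491 to 79711969, plus strand) encodes basigin, the partner of MCT1 and MCT4, which male mice need for spermatogenesis. It had 220.8, 236 and 248 CPM in deletion replicates and 545, 562 and 569.5 CPM in WT replicates, 2.38-fold lower in the deletion with TMM scaling (log2 change -1.25, SE 0.08, adjusted p = 1.31e-09, edgeR). Its loss was called under each scaling, at -0.61 with no factor, -3.44 at Sertoli marker level and -4.44 at Leydig marker level. Its rank by CPM was 370 among all tested genes in both groups, so its place among other genes was the same. Emb (chromosome 13, 117208536 to 117274415, plus strand) encodes embigin, the partner of MCT2. It had 107, 115 and 91.6 CPM in deletion replicates and 8.87, 6.86 and 12.3 CPM in WT replicates, the largest gain of the 9 genes. Emb was 11.3-fold higher with TMM scaling (log2 change 3.5, SE 0.17, adjusted p = 2.43e-11, edgeR), still 1.31 at Sertoli marker level (adjusted p = 6.59e-06), and no longer called at Leydig marker level, at 0.32 (adjusted p = 0.138). Emb shares 4.92% of its 50-mers with other genes and 686 exon bases with Gm17509 on the other strand, which had 16 counts in the deletion and 4 in WT.

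The zero of the log2 scale depends on how libraries are scaled, while the distance between genes does not. TMM put the median log2 change of all tested genes at -0.19, median-of-ratios scaling at -0.36, upper-quartile scaling at 0.35 and the absence of a factor at 0.45. It was -2.37 when libraries were scaled to equal Sertoli markers, -1.8 to equal spermatogonial markers and -3.38 to equal Leydig markers. Relative to that median, over these alternatives and DESeq2, Slc2a5 stayed between -8.95 and -8.89, Slc16a7 between -6.88 and -6.85, Slc2a3 between -5.08 and -5.04, Bsg between -1.08 and -1.06 and Slc2a8 between -0.47 and -0.45. Slc16a1 stayed between 1.95 and 1.97, Slc16a3 between 2.02 and 2.05, Slc2a1 between 2.25 and 2.26 and Emb between 3.65 and 3.69. At Sertoli marker level 1 of the 9 genes was called higher and 6 lower, where 3.85% of all tested genes were called higher and 76.7% lower. At Leydig marker level 0 were called higher and 8 lower, against 0.399% and 90.7% of all tested genes, and at spermatogonial marker level 1 was called higher and 5 lower, against 9.2% and 66.9%.

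**Figure D2:**
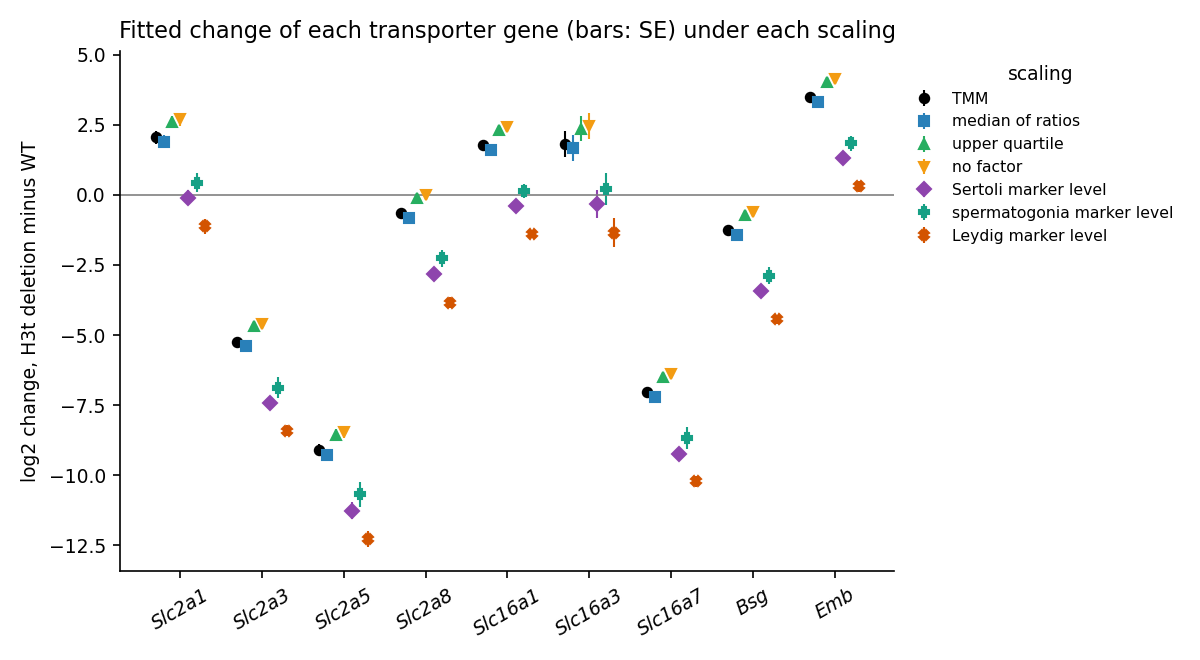
Fitted log2 change, H3t deletion minus WT, of the 9 genes under 7 scalings (symbols; bars are standard errors; horizontal line at 0). Every gene moves down by about the same distance from TMM to marker-level scaling: Slc2a3, Slc2a5, Slc16a7 and Bsg lie below 0 under each scaling and Emb above 0, while Slc2a1, Slc16a1 and Slc16a3 cross 0.

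Ratios of 2 transporters within a library do not depend on the scaling factor. The log2 ratio of Slc16a7 to Slc16a1 counts was -4.76, -4.39 and -4.53 in deletion replicates 1, 2 and 3 and 4.56, 4.23 and 4.02 in WT replicates 1, 2 and 3. The ratio was thus negative in every deletion library and positive in every WT library, a difference of -8.83 between the group means. These are ratios of counts, with no correction for the lengths of the genes. The log2 ratio of Slc2a3 to Slc2a1 averaged 0.62 ± 0.04 in the deletion and 7.93 ± 0.23 in WT (SD, n = 3 each), a difference of -7.31. That of Slc16a7 to Slc16a3 averaged 0.40 ± 0.18 in the deletion and 9.43 ± 1.05 in WT, a difference of -9.03. That of Emb to Bsg averaged -1.17 ± 0.23 in the deletion and -5.93 ± 0.41 in WT, a difference of 4.76. That of Slc2a8 to Slc2a1 averaged -0.70 ± 0.14 in the deletion and 2.02 ± 0.45 in WT, a difference of -2.73. None of these 5 ratios overlapped between the groups. That says little by itself, since 85.9% of all tested genes did not overlap singly and no share over ratios of other gene pairs was computed. The differences restate the changes of the single genes and are no further result. Each had p = 0.1 in a two-sided exact permutation test, the lowest value possible with 3 against 3 libraries, and p = 0.12 after adjustment over the 6 ratios computed. The remaining ratio did not separate the groups. The log2 ratio of Slc16a1 to Slc16a3 averaged 4.96 ± 0.11 in the deletion and 5.16 ± 0.78 in WT, a difference of -0.20 with overlapping groups (p = 0.9, two-sided exact permutation test), which became 0.23 without WT replicate 1. Its WT values of 6.02, 4.94 and 4.52 in replicates 1, 2 and 3 rest on the low Slc16a3 counts, so a difference smaller than this spread was not detectable at this depth.

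Per kilobase, the mix within each class shifted, although Bsg remained most of the ancillary pair in both groups. Among the 4 SLC2 transporters Slc2a1 made up 40.5% ± 1.82 of the class level in the deletion and 0.398% ± 0.0834 in WT, and Slc2a8 27.1% ± 1.66 in the deletion and 1.77% ± 0.196 in WT (SD, n = 3 each). Slc2a5 made up 2.18% ± 1.7 in the deletion and 50.6% ± 3.87 in WT, and Slc2a3 30.2% ± 1.17 in the deletion and 47.2% ± 3.98 in WT. Slc2a3 was a large part of the class in both groups, although its own level fell. Among the monocarboxylate transporters Slc16a1 made up 95.9% ± 0.307 in the deletion and 12.2% ± 1.98 in WT, Slc16a7 1.52% ± 0.194 in the deletion and 87.5% ± 2.17 in WT, and Slc16a3 2.54% ± 0.188 in the deletion and 0.309% ± 0.192 in WT. The class sum was 32.2 ± 0.314 CPM per kb in the deletion and 73.9 ± 5.47 CPM per kb in WT. Of the ancillary pair Emb made up 10.5% ± 1.44 in the deletion and 0.436% ± 0.122 in WT, and Bsg the rest. With the length of the longest transcript, tried after the data were seen, Emb made up 18.9% ± 2.36 in the deletion and 0.862% ± 0.24 in WT.

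**Figure D3:**
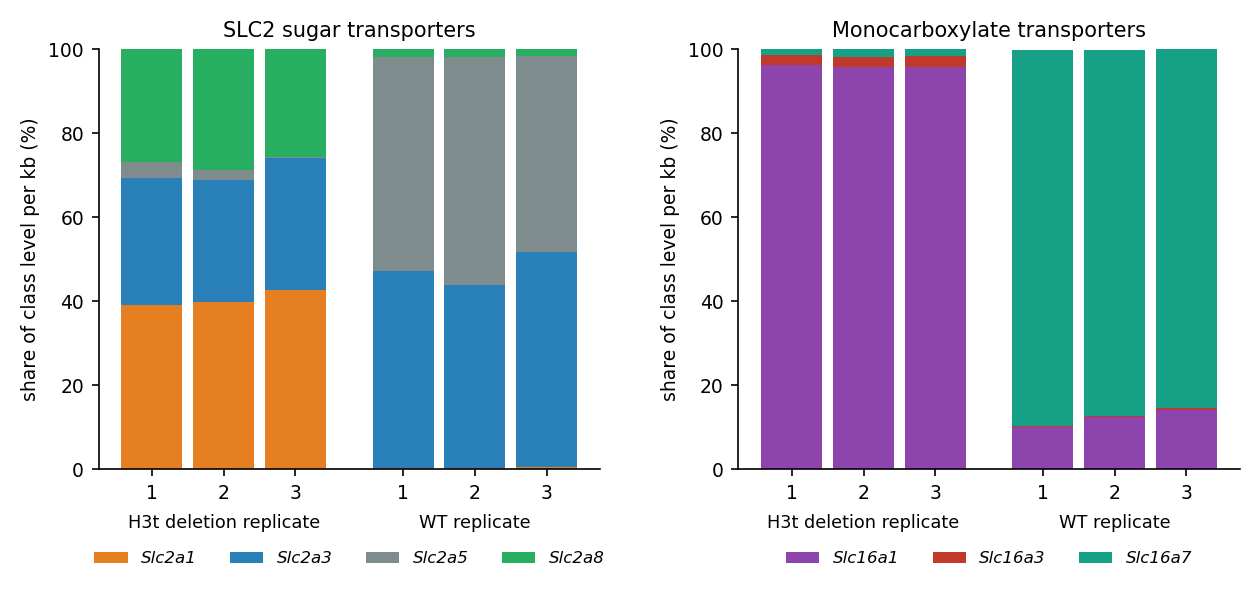
Share of each gene in the summed level per kb of its class (%), in each H3t deletion library (left 3 bars of a panel) and WT library (right 3 bars). In the left panel Slc2a1 holds 39.2% to 42.6% of the deletion bars and under 1% of the WT bars, and in the right panel Slc16a1 holds 95.7% to 96.3% of the deletion bars and 10.1% to 14.1% of the WT bars.

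In the deletion the order of levels per kb was Bsg at 129.5 ± 7.48, Slc16a1 at 30.9 ± 0.39, Emb at 15.2 ± 1.71, Slc2a1 at 5.03 ± 0.376, Slc2a3 at 3.75 ± 0.295, Slc2a8 at 3.36 ± 0.0838, Slc16a3 at 0.819 ± 0.0524, Slc16a7 at 0.49 ± 0.0611 and Slc2a5 at 0.27 ± 0.216 CPM per kb (SD, n = 3). Slc16a7 and Slc2a5, the last of this order, overlapped between libraries, and Slc2a3 and Slc2a8 were separated by less than their spread, from 3.43 upward and up to 3.42 CPM per kb. In WT the order was Bsg at 308 ± 6.79, Slc2a5 at 151 ± 9.63, Slc2a3 at 141 ± 16.6, Slc16a7 at 64.7 ± 5.7, Slc16a1 at 9.01 ± 1.38, Slc2a8 at 5.28 ± 0.396, Emb at 1.35 ± 0.395, Slc2a1 at 1.2 ± 0.304 and Slc16a3 at 0.226 ± 0.142 CPM per kb. Slc2a5 and Slc2a3 overlapped between libraries, as did Emb and Slc2a1. Bsg led in both groups, and the 3 genes next to it in WT were the 3 with the largest losses. Lengths were those of all annotated exons joined. With the longest transcript instead, Emb came before Slc16a1 in the deletion, and Slc2a3 before Slc2a5 in WT.

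Other genes of the same families were mostly low. Of the 8 further SLC2 genes 3 had enough counts to be tested, and all 3 rose with TMM scaling, as did 6 of 7 tested of the 11 further SLC16 genes. With that scaling 38.4% of all tested genes were called higher. At Sertoli marker level 0 of these 10 tested genes were called higher and 3, all of them SLC16 genes, were called lower, beside 3.85% and 76.7% of all tested genes, and at Leydig marker level 2 SLC2 and 4 SLC16 genes were called lower, beside 90.7% of all tested genes. The median log2 change with TMM was 1.87 over the 3 SLC2 genes and 1.88 over the 7 SLC16 genes, against -0.19 over all tested genes. Slc2a12, the sugar transporter GLUT12, averaged 7.71 ± 1.48 CPM in the deletion, against 2.56 ± 1.03 CPM in WT (SD, n = 3 each), a log2 change of 1.57 with TMM and -0.60 at Sertoli marker level. Slc2a2 (GLUT2) and Slc2a13, a proton-linked myo-inositol transporter, were at log2 changes of 2.27 and 1.87 with TMM and 0.14 and -0.27 at Sertoli marker level. Slc16a6 averaged 15 ± 0.655 CPM in the deletion, against 5.95 ± 0.713 CPM in WT, and Slc16a13 11.7 ± 0.943 CPM in the deletion, against 2.17 ± 1.16 CPM in WT. Their log2 changes were 1.32 and 2.4 with TMM and -0.85 and 0.24 at Sertoli marker level. Of 9 sodium-coupled sugar and monocarboxylate transporters 1 was tested, Slc5a4b, with 0 counts in the deletion and 10.7 ± 0.791 CPM in WT (SD, n = 3), at least 116-fold lower in the deletion.

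Genes that handle lactate and pyruvate inside the cell moved in both directions. Of 13 tested, 6 rose and 7 fell with TMM scaling, beside 38.4% and 46.1% of all tested genes. All 13 were thus called, beside 84.5% of all tested genes, and so few genes say little about a difference in these shares. Their median log2 change was -0.61, against -0.19 over all tested genes. At Sertoli marker level 2 were called higher and 8 lower, beside 3.85% and 76.7% of all tested genes. The listed gene Mpc1l was not analysed here. Ldhc, the lactate dehydrogenase of male germ cells, averaged 2.45 ± 1.7 CPM in the deletion, against 1846 ± 35.3 CPM in WT, and Ldha, the form that favours lactate production in muscle, 18.2 ± 6.42 CPM in the deletion, against 332 ± 20.5 CPM in WT (SD, n = 3 each). Ldhb, the heart form, averaged 200.7 ± 19.1 CPM in the deletion, against 33.6 ± 5.15 CPM in WT. The log2 changes of Ldhc, Ldha and Ldhb were -9.54, -4.18 and 2.58 (adjusted p = 9.34e-15, 2.4e-12 and 1.3e-11, edgeR). Ldhb kept its call as higher at Sertoli marker level, at 0.40, and turned to -0.60 at Leydig marker level. Of the 50-mers of Ldhb 21% are shared with other genes, and of those of Ldha 9.03%.

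The mitochondrial pyruvate carrier subunit Mpc2 was at -3.55 and its partner Mpc1 at 1.09, or -1.07 at Sertoli marker level, with 11% of the 50-mers of Mpc1 shared with other genes. Of the alpha subunits of pyruvate dehydrogenase, the X-linked Pdha1 averaged 52.4 ± 3.82 CPM in the deletion, against 7.79 ± 0.94 CPM in WT, a log2 change of 2.75 with TMM, 0.57 at Sertoli marker level and -0.44 at Leydig marker level. Its testis retrocopy Pdha2, named here after its value was seen, averaged 2.67 ± 0.586 CPM in the deletion, against 224 ± 15.6 CPM in WT (SD, n = 3 each). The remaining genes that rose with TMM were Ldhd, a D-lactate dehydrogenase, and the pyruvate dehydrogenase kinases Pdk1 and Pdk4, at 2.76, 2.42 and 2.57. At Sertoli marker level they were at 0.57, 0.23 and 0.43, none of them called. At Leydig marker level they were at -0.43, -0.78 and -0.63, with only Pdk1 called (lower). The other listed kinases, Pdk2 and Pdk3, named here after their values were seen, were called lower with TMM, at -1.11 and -0.61. With upper-quartile scaling Pdk3 was not called.

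Of 7 tested genes that trap glucose or set how much transporter reaches the surface, 4 rose and 2 fell with TMM. Over all tested genes 38.4% were called higher and 46.1% lower. At Sertoli marker level 0 of the 7 were called higher and 5 lower, beside 3.85% and 76.7% of all tested genes. The median log2 change of the 7 was 0.72 with TMM and -1.46 at Sertoli marker level. Over all tested genes these medians were -0.19 and -2.37. Hk1, the hexokinase with a sperm form, averaged 47.2 ± 8.72 CPM in the deletion, against 2460.4 ± 135 CPM in WT (SD, n = 3 each), a log2 change of -5.7. Hk2, the insulin-responsive hexokinase of muscle and fat, averaged 222 ± 7.53 CPM in the deletion, against 55.4 ± 4.61 CPM in WT, a log2 change of 2.0 with TMM and -0.18 at Sertoli marker level. Txnip, an arrestin that draws GLUT1 from the surface, averaged 247 ± 3.6 CPM in the deletion, against 59.7 ± 11.1 CPM in WT, a log2 change of 2.04 with TMM and -0.13 at Sertoli marker level.

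**Figure D4:**
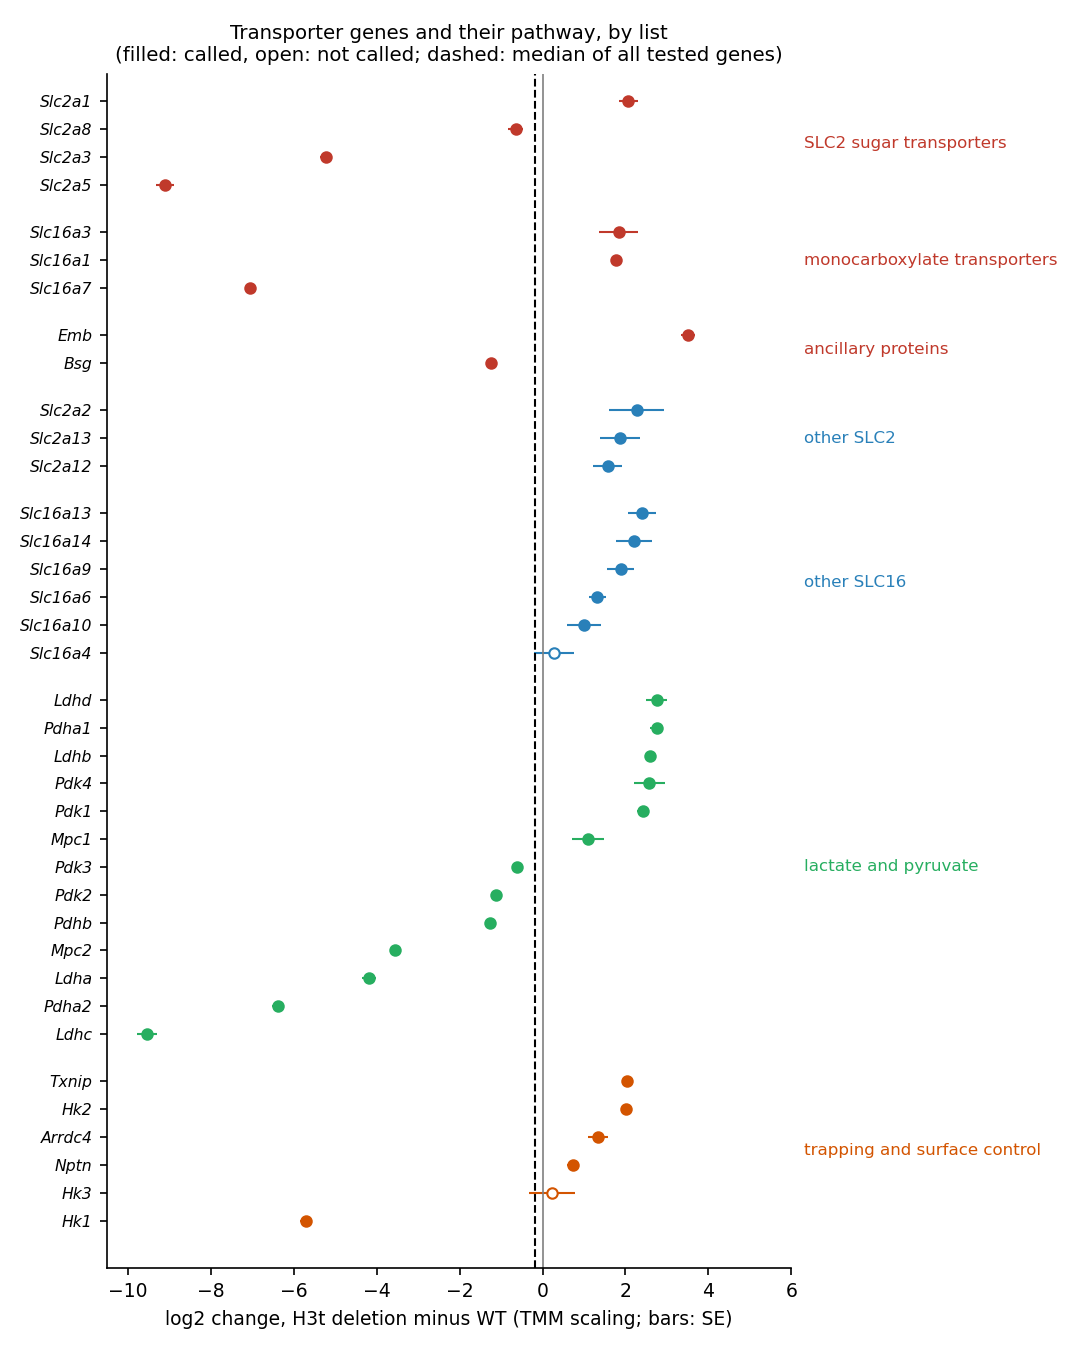
Fitted log2 change, H3t deletion minus WT with TMM scaling, of the transporter genes and of most tested genes of their pathway lists (points, filled where called; bars are standard errors; solid line at 0, dashed line at the median of all tested genes, -0.19). Slc5a4b, at least 116-fold lower in the deletion, where it had 0 counts, is not drawn. Among the genes drawn the lowest value is -9.54 at Ldhc and the highest 3.5 at Emb. At Sertoli marker level none of the other SLC2 and SLC16 genes drawn was called higher, beside 3.85% of all tested genes.

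The genes whose profiles over the 6 libraries lay nearest to those of the transporters were sought among 9369 named genes averaging 10 CPM or more, by Euclidean distance between mean-centred log2 CPM. The log2 CPM were computed with a prior count of 2, which largely sets the value of a gene with few or no counts in a group, so a small distance is not an equal fold change. Nearest to Slc2a3 were Rasef and Dnaja4, at distances of 0.19 and 0.29, and nearest to Slc2a5 were Dkkl1 and Qrich2, at 0.27 and 0.35. Nearest to Slc16a7 were Tex50 and Efcab3, at 0.28 and 0.30, but both had 0 counts in the deletion, where the prior count alone sets their level. Their fitted log2 changes were -10.94 and -10.91, against -7.04 for Slc16a7, so these distances show no likeness in the size of the change. Nearest to Slc2a1 were Nt5c3 and Trpc5os, at 0.14 each, to Slc16a1 Mtap and Lamp2, at 0.11 and 0.14, and to Slc16a3 Tmem255a and Parvb, at 0.45 and 0.57. Nearest to Slc2a8 were Ccdc93 and Lpp, at 0.11 each, to Bsg Phf21a and Taf3, at 0.10 and 0.11, and to Emb Adgrg7 and Prss35, at 0.19 and 0.33. The nearest partners of Slc16a3 were the farthest of all, and its WT counts were the lowest of the 9 genes.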

How the data were processed

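Per the labels' protocols, RNA was extracted from testis cryosections and a SMART-Seq Stranded kit was used. The authors deposited raw counts of reads per Ensembl gene, made with Trim Galore, HISAT2 on GRCm38 and featureCounts, per the submitters' processing notes; tool versions, the annotation and the strand option were not given in these sources, which leaves reads of overlapping and antisense genes uncertain. All 54100 genes are in GENCODE M21, which gave lengths, coordinates and shared 50-mers, and 0 value columns were left unused. Samples were grouped by the genotype label.

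In R 4.3.3, edgeR 4.0.16 filtered genes with filterByExpr (17038 left), scaled by TMM (factors 1.21 to 1.27 in the deletion and 0.794 to 0.806 in WT) and tested deletion minus WT by its quasi-likelihood test, with Benjamini-Hochberg adjustment. The biological coefficient of variation was 13.1%. Standard errors were taken as the log2 change divided by the root of the F statistic. Each count was worth 0.0904 to 0.156 CPM. For log2 CPM a prior count of 2 was used, and for ratios 0.5 was added to each count. No pair of libraries agreed within sampling noise (chi-square per degree of freedom 4.69 to 7.29 within groups). The steps were tested on simulated counts, with both groups drawn from the WT profile and a small part of the genes changed. That setting could not test the scaling where most genes differ, as they do here. Alternatives were other scalings and filter, DESeq2 1.42.0, a false discovery rate of 0.01 and each library left out.

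The members and lists were chosen with earlier results of these data known. Named from each pathway list were up to 3 called genes with the highest mean CPM and every called gene that moved against most of its list; some that the rule names are not reported here.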

Additional observations from a re-analysis of the deposited data

How the results depend on the processing

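The losses of Slc2a3, Slc2a5, Slc16a7 and Bsg were called under all 15 alternatives, while the gains depended on scaling. With libraries scaled to equal Sertoli markers 656 genes were called higher and 13070 lower, and of the 9 transporter genes 1 was higher; Slc2a1 turned to -0.10, Slc16a1 to -0.40 and Slc16a3 to -0.32. Chosen after seeing the data, scaling to equal Leydig markers gave 68 genes higher and 15460 lower, 0 transporter genes higher and 8 lower, with Slc2a1 at -1.12, Slc16a1 at -1.41 and Slc16a3 at -1.35. Scaling to equal spermatogonial markers, also chosen after seeing the data, gave 1568 genes higher and 11399 lower, and 1 transporter gene higher (Emb, at 1.85). There Slc2a1, Slc16a1 and Slc16a3 kept a positive sign, at 0.44, 0.14 and 0.215, but were not called. The cause of these differences is the scaling itself, which moves every gene by about the same amount. Leaving out each library in turn gave 6356 to 6591 genes higher and 7899 to 8287 lower and kept all 9 calls, with an adjusted p of at most 0.0137 (Slc2a8, edgeR). The widest ranges were those of Slc2a5, -9.80 to -8.63, and of Slc16a3, 1.46 without WT replicate 1 to 2.30 without WT replicate 3. The log2 ratio of Slc16a1 to Slc16a3, -0.20 as reported, was 0.03 (0.0322) with a prior count of 2 and ran from -0.52 to 0.23 over the left-out libraries. No paired analysis was possible because the groups share no replicate numbers in the labels. With 3 libraries a group, and under 50 counts of Slc16a3 and of Slc2a5 in each deletion library, changes of low genes are known least well.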
